A study of Mus musculus with 17 samples.

Results

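The 43 genes described here encode the ligands, receptors, extracellular modulators, SMAD proteins and classical target genes of transforming growth factor beta (TGF-beta) and bone morphogenetic protein (BMP) signalling. They were taken by gene symbol from a table of 23420 genes, and all 43 symbols were present. RNA was sequenced in 17 libraries of mouse cells. They came from C57BL/6 mice with a knock-in of the R172H allele of p53, which is a tumour suppressor that this allele alters, so every group, the controls included, derives from cells with that allele. The groups were bone marrow mesenchymal stem cells (MSC, 3 libraries) and lines from the tumours of such cells, of a first generation (TL1, 6 libraries) and a second generation (TL2, 4 libraries). Clones of first-generation tumour line cells either kept mutant p53 (Mut clones, 2 libraries) or had p53 knocked out (KO clones, 2 libraries). MSC were kept in MSC medium, while cells from tumours were kept on plates coated with agar in medium holding leukaemia inhibitory factor. Culture conditions and tumour origin can thus not be told apart. The labels give a passage range of 2 to 20 for all groups. They name neither the line from which the clones were made nor separate animals or cultures within a group, so a p-value here measures spread between libraries that may be partly technical.

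TGF-beta is secreted in a latent complex that latent TGF-beta binding proteins (LTBPs) tether to the matrix. Once released, it binds the type II receptor encoded by Tgfbr2, which activates the type I receptor and, through it, SMAD2 and SMAD3. BMPs act through other type I receptors on SMAD1, SMAD5 and SMAD9, and both branches share SMAD4. Secreted antagonists such as noggin and follistatin trap the ligands, and the inhibitory SMADs, SMAD6 and SMAD7, are induced by the pathway and act back on it. In mesenchymal stem cells BMPs are known for promoting bone formation, TGF-beta for inducing matrix and contractile genes, and the ID proteins, targets of BMP, for holding back differentiation factors such as MYOD1.

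Library totals lay between 12215025 and 15962341 counts. KO clone 2 stood apart in Rn45s, a ribosomal RNA precursor, with 4.14% of its counts against 0.476% to 1.59% in the other libraries. Levels are given as CPM, which scales the counts of every library to 1 common size after TMM normalization. Trp53 was at 358 and 280 CPM in the Mut clones against 80.8 and 89.6 CPM in the KO clones. It fell by 1.89 on the log2 scale, where a difference of 1 is a 2-fold change (SE 0.23, edgeR adjusted p = 0.00259). The sum over 14 mesenchymal stromal markers was 19445 to 27356 CPM in MSC, 2757 to 6736 CPM in TL1 and 2672 to 10948 CPM in TL2. It was 2538 and 3163 CPM in the Mut clones, with 4949 and 4953 CPM in the KO clones, where Lum had no counts. Its largest parts in MSC 1 were Col1a1, Col1a2 and Cxcl12, at 7216, 6125 and 3189 CPM. Col1a1 and Col1a2 are also on the list of TGF-beta targets below. The markers did not fall together in tumour lines. Thy1 and Cxcl12 were called lower. For Pdgfra (-2.87 on the log2 scale), Col1a1 (-2.57), Pdgfrb (-1.97), Prrx1 (-1.72) and Col1a2 (-1.65) all tumour lines lay below MSC, none called. Lum (-0.72) and Itgb1 (-0.05) overlapped and were not called. Nt5e (3.33), Ly6a (1.52), Cd44 (0.64), Vcam1 (0.50) and Lepr (0.36) had differences above 0, none called. Sums over 11 macrophage and haematopoietic markers reached at most 65.0 CPM and over 6 endothelial markers at most 3.44 CPM in any library. The 65.0 CPM, in TL2 1, held 32.6 CPM of Cd14 and 19.2 CPM of Lyz2. Lyz2 was also at 20.1 CPM in MSC 1 and 17.5 CPM in TL1 3b, but at most 1.73 CPM elsewhere. Tyrobp had counts in these libraries alone. In tumour lines Cd14 was called higher (2.32 on the log2 scale) and Fcer1g lower (-2.36). The sum over 6 epithelial markers was at most 1.70 CPM in MSC and 72.0 CPM in TL1 and reached 309 CPM in the TL2 line 3. It was 35.2 and 111 CPM in the Mut clones against 3.51 and 3.62 CPM in the KO clones. In TL2 3 Krt18 was at 253 CPM and Krt8 at 55.4 CPM, while Epcam and Cdh1 were at 0.257 and 0.322 CPM. Krt18 was at 110 CPM in Mut clone 1 and 34.1 CPM in Mut clone 2, with Epcam and Cdh1 at most 0.398 CPM. Epcam was at most 0.373 CPM in any library, and Cdh1 was highest in TL1 1b, at 10.3 CPM. The sum over 7 skeletal muscle markers was 9.26 to 112 CPM in MSC, 197 to 2705 CPM in TL1 and 13.1 to 890 CPM in TL2. It was 4.38 and 5.07 CPM in the Mut clones against 2557 and 3543 CPM in the KO clones. All 7 muscle markers were called higher in the KO clones, and Actn2 had no counts in the Mut clones. Every difference between the clones described below moved together with these muscle markers, and their part in it was not tested. In such bulk libraries, fewer cells of a type and less RNA per cell cannot be told apart.

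More of the 43 genes had their highest mean in MSC, and more their lowest in the Mut clones, than in any other group. These counts were not made over all genes, so they cannot be read as particular to the pathway. The Mut clones also had the fewest genes detected of all libraries, 14801 and 14574 against 14972 to 16037 in the others. The highest of the 5 group means was in MSC for 15 of the 43 genes, in the KO clones for 10, in TL1 for 9, in TL2 for 5 and in the Mut clones for 4. Of 42 genes with a single lowest group, 28 had it in the Mut clones and 3 in MSC. A mean under 1 CPM was found for 11 genes in the Mut clones, 8 in the KO clones, 5 in TL1, 4 in TL2 and 1, Bmp7, in MSC. Differences were tested with edgeR's quasi-likelihood test over all genes that passed a filter on low counts, and genes with a Benjamini-Hochberg adjusted p under 0.05 were called. Between tumour lines and MSC, 8 of 42 tested members were called, 1 higher and 7 lower, where the background over all 13262 tested genes was 8.65% (3.86% higher, 4.79% lower). For 9 members all 10 tumour lines lay below the 3 MSC libraries, and for none did all lie above. Over all tested genes, 12.6% did not overlap in either direction. The median log2 difference was -0.33 over the members and 0.10 over all genes. Between KO and Mut clones, 20 of 39 tested members were called, 16 higher and 4 lower, against a background of 26.1% of 12238 tested genes (14.2% higher, 12% lower). The median log2 difference was 0.80 over the members and 0.01 over all genes. With 2 clones a group, 31 of the 39 members did not overlap, where 69.7% of all genes did not. An unadjusted p under 0.05 was found for 25 members and for 40.4% of all genes. Scaling by library totals alone moved the median of all genes between the clones to -0.13 and left 15 members higher and 4 lower. For tumour lines against MSC it turned 512 higher and 635 lower genes into 680 higher and 547 lower, and the members remained at 1 and 7.

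**Figure D1:**
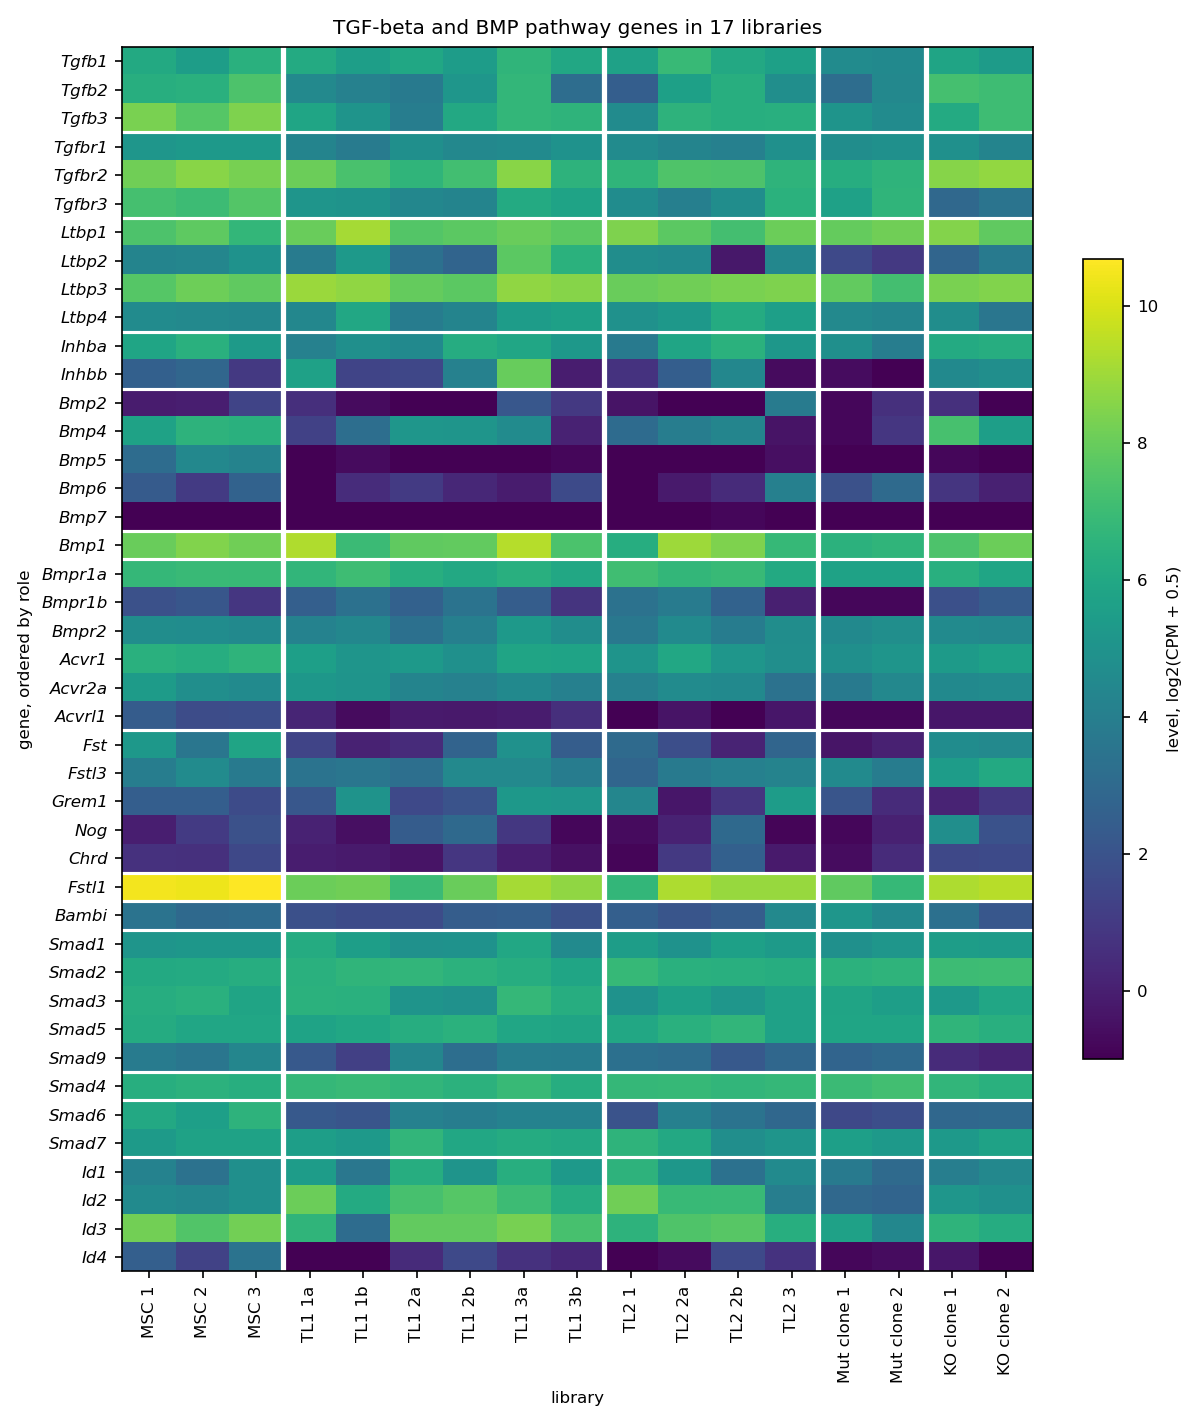
Levels of the 43 genes as log2(CPM + 0.5) in each of the 17 libraries, with genes in rows ordered by role and libraries in columns separated by group. The row of Bmp5 is dark outside the 3 MSC libraries, the row of Fstl1 is the brightest in MSC at 1351 to 1649 CPM, and the columns of the Mut clones hold the most genes with a mean under 1 CPM (11 of 43).

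**Figure D2:**
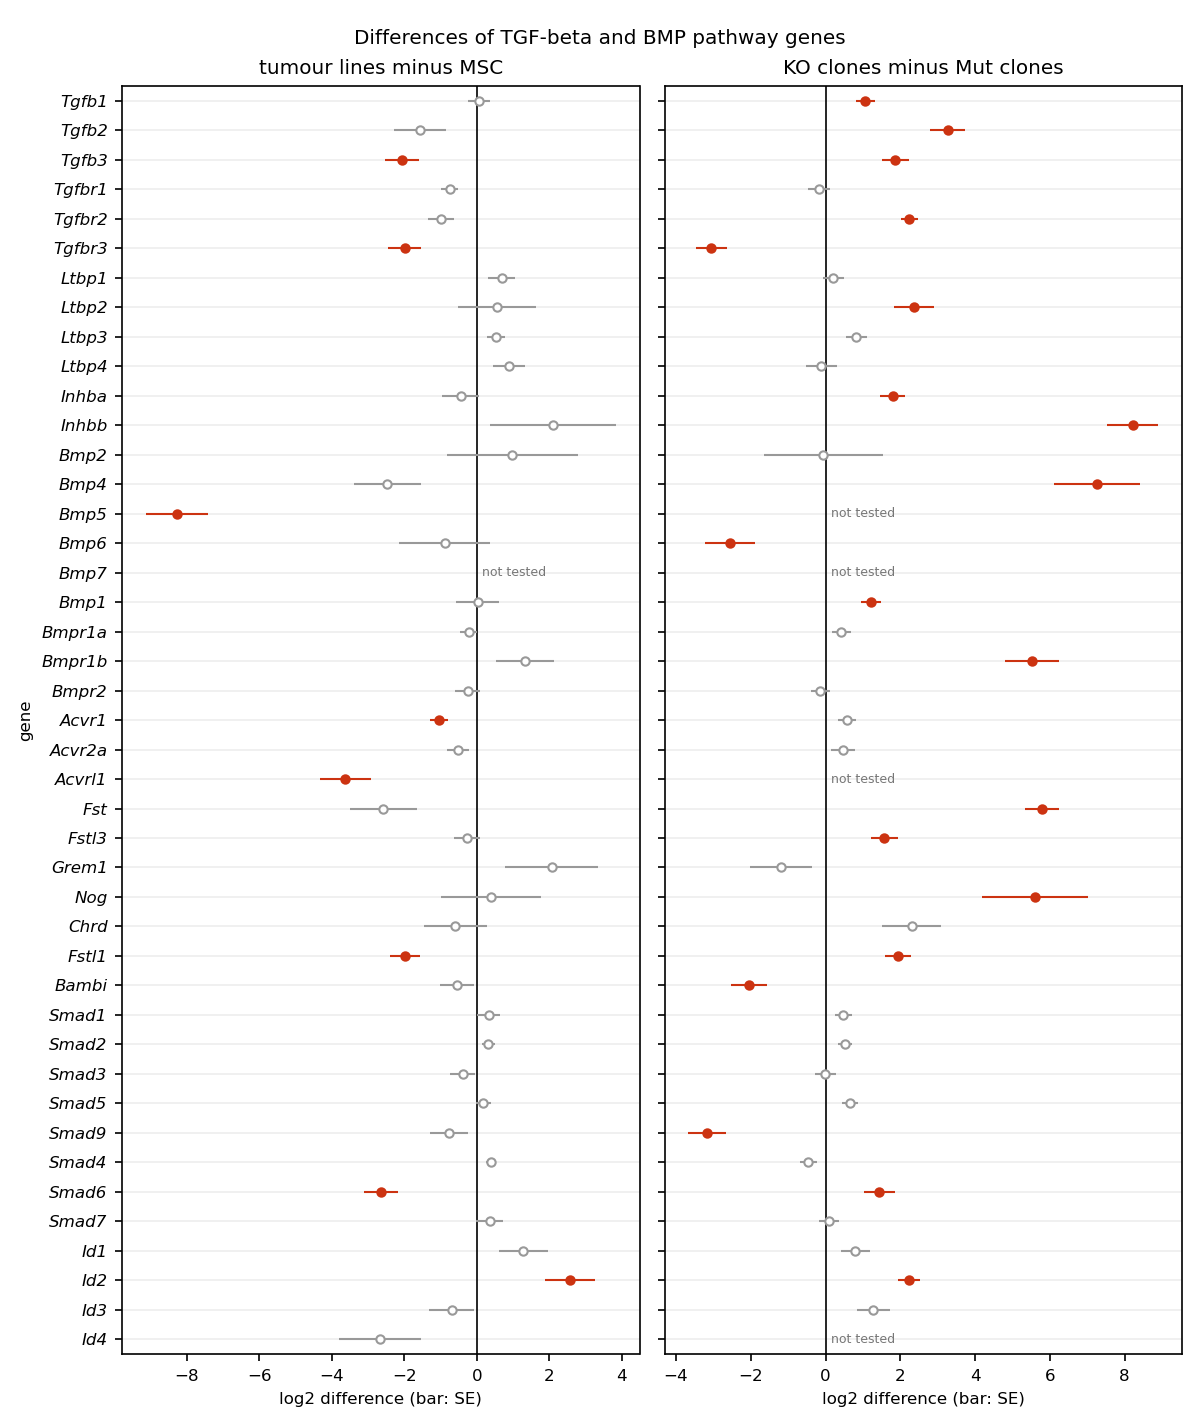
Log2 differences of the 43 genes with their standard errors (bars), tumour lines minus MSC on the left and KO clones minus Mut clones on the right, with filled red points for genes called by edgeR. The left panel holds 1 called gene above 0 and 7 below, the right panel 16 above and 4 below; the points of Inhbb and Bmpr1b on the right are fitted values that rest on 2 counts in the Mut clones.

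Of the 3 TGF-beta ligand genes, Tgfb3 was lower in tumour lines than in MSC, and all 3 were higher in the KO clones than in the Mut clones. Tgfb3 was at 318, 193 and 347 CPM in MSC, at 14.9 to 108 CPM (median 62.1) in TL1 and at 24.5, 94.8, 80.1 and 82.3 CPM in the TL2 lines 1, 2a, 2b and 3, the order used throughout. No tumour line reached the lowest MSC library. It fell by 2.07 (SE 0.46, edgeR adjusted p = 0.0172), though not in the fits without MSC 1 (adjusted p = 0.0865), without MSC 3 (0.108) or with TL2 alone against MSC (0.0736). Its level was 32.4 and 24.6 CPM in the Mut clones and 71.2 and 134 CPM in the KO clones, a rise of 1.87 (SE 0.36, edgeR adjusted p = 0.0134). Tgfb2 was at 79.9, 84.2 and 172 CPM in MSC, at 8.44 to 107 CPM (median 19.5) in TL1 and at 5.06, 49.4, 79.7 and 26.6 CPM in TL2. Only TL1 3a, at 107 CPM, lay within the MSC range, and the difference of -1.57 (SE 0.71) was not called (edgeR adjusted p = 0.182) unless that line was left out (0.0434). Between the clones Tgfb2 had the largest difference of the 3. It was at 8.55 and 21.7 CPM in the Mut clones and 152 and 134 CPM in the KO clones, a rise of 3.26 (SE 0.46, edgeR adjusted p = 0.00635). Tgfb1 was at 68.3, 44.9 and 84.5 CPM in MSC, 42.9 to 98.5 CPM (median 62.8) in TL1 and 51.6, 117, 66.1 and 50.2 CPM in TL2. These overlapped, with a difference of 0.06 (SE 0.31). It was at 24.4 and 22.8 CPM in the Mut clones and 55.7 and 42.1 CPM in the KO clones, a rise of 1.07 (SE 0.25, edgeR adjusted p = 0.0248). Leaving out any 1 of the 4 clones ended the call of Tgfb1 (adjusted p 0.0573 to 0.136). That of Tgfb3 was lost without Mut clone 1 (0.0593), Mut clone 2 (0.100) or KO clone 2 (0.0588). Per kb of exon, the MSC mean was 84.5 CPM for Tgfb3, 19.3 CPM for Tgfb2 and 13.1 CPM for Tgfb1, whereas in the KO clones Tgfb3 (30.4 CPM) and Tgfb2 (24.7 CPM) were close.

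The receptors did not move as a group: between the clones, Tgfbr2 rose, Tgfbr3 fell and Tgfbr1 was not called. Tgfbr2, the receptor that binds the ligand first, was at 77.2 and 97.8 CPM in the Mut clones and at 380 and 440 CPM in the KO clones, a rise of 2.25 (SE 0.23, edgeR adjusted p = 0.00133). In MSC it was at 288, 388 and 308 CPM, in TL1 at 94.8 to 385 CPM (median 149) and in TL2 at 101, 179, 170 and 95.4 CPM. TL1 3a, at 385 CPM, was the one tumour line within the MSC range. The difference of -0.99 (SE 0.37, edgeR adjusted p = 0.113) was called only without it (0.0268) or with the lines summed per number (0.0306). Tgfbr3, or betaglycan, is a co-receptor that presents TGF-beta2 and also binds inhibin and BMPs. It was at 151, 129 and 190 CPM in MSC, at 18.9 to 69.8 CPM (median 33.0) in TL1 and at 25.2, 16.1, 26.3 and 87.9 CPM in TL2. The groups did not overlap, and it fell by 1.99 (SE 0.45, edgeR adjusted p = 0.0181), though not without MSC 1 (0.0738) or MSC 3 (0.113), with the lines summed per number (0.0547) or with TL2 alone against MSC (0.0688). In the clones it was at 51.6 and 101 CPM with mutant p53 and at 7.24 and 10.8 CPM after knockout, and fell by 3.06 (SE 0.41, edgeR adjusted p = 0.00432). The calls of Tgfbr2 and Tgfbr3 between the clones held in all 9 alternative fits. Tgfbr1, the type I receptor, stayed between 13.8 and 40.1 CPM in all libraries. Its tumour lines lay wholly below MSC with a difference of -0.75 (SE 0.23, edgeR adjusted p = 0.0600). The difference was called with DESeq2 (adjusted p = 0.0187) and, by edgeR, with the number in the titles as a replicate block (0.0384). It was also called by edgeR without TL1 1b (0.0481), TL1 3b (0.0389) or TL2 3 (0.0395). It was not called with the lines summed per number (0.0593).

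None of the 4 LTBP genes was called between tumour lines and MSC. Ltbp1 was at 174, 224 and 105 CPM in MSC, 186 to 557 CPM (median 235) in TL1 and 349, 215, 147 and 268 CPM in TL2. Its clones overlapped, at 241 and 281 CPM with mutant p53 and 371 and 227 CPM after knockout. Ltbp3 was at 194, 275 and 229 CPM in MSC, 212 to 482 CPM (median 402) in TL1 and 255, 284, 324 and 340 CPM in TL2. Per kb of exon, these 2 were the most abundant LTBP genes in every group, with group means of 15.7 to 28.0 CPM for Ltbp1 and 21.2 to 40.0 CPM for Ltbp3. In the clones Ltbp3 was at 239 and 145 CPM with mutant p53 and at 320 and 354 CPM after knockout. The difference was not called by edgeR (0.83, SE 0.28, edgeR adjusted p = 0.0719) but was with DESeq2 (adjusted p = 0.0280). Ltbp2 spread widely between tumour lines, from 0.350 CPM in TL2 2b to 215 CPM in TL1 3a. TL1 began at 6.39 CPM with a median of 26.4 CPM, the other TL2 lines were at 25.9, 24 and 21 CPM, and MSC were at 19.1, 20.1 and 30.6 CPM. Ltbp2 rose from 2.46 and 1.43 CPM in the Mut clones to 6.61 and 13.4 CPM in the KO clones by 2.36 (SE 0.55, edgeR adjusted p = 0.0231), which was lost without Mut clone 1 (0.0706), Mut clone 2 (0.130) or KO clone 2 (0.129). Ltbp4 lay between 11.6 and 72.0 CPM in all libraries and was not called, except in tumour lines with the lines summed per number (edgeR adjusted p = 0.0406). Bmp1, despite its name, encodes a procollagen C-proteinase that also cleaves LTBP1 and chordin. It was at 256, 358 and 286 CPM in MSC, 125 to 662 CPM (median 233) in TL1 and 76.2, 505, 347 and 114 CPM in TL2, which overlapped. It rose from 91.9 and 99.0 CPM in the Mut clones to 173 and 267 CPM in the KO clones by 1.22 (SE 0.26, edgeR adjusted p = 0.0181). That call was lost without Mut clone 1 (0.0921), Mut clone 2 (0.0942) or KO clone 2 (0.0991).

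Both activin subunit genes and Fst, the gene of follistatin, which binds activin, were called higher in the KO clones than in the Mut clones. Inhbb, which encodes the activin beta B subunit, had 2 counts over the Mut clones (0.145 and 0 CPM) and 634 counts over the KO clones (23 and 27.2 CPM). The ratio was 331, with a 95% exact interval of 91.2 to 2738 that covers counting error only (edgeR adjusted p = 0.000656). Across tumour lines Inhbb had the widest range of all members with counts in every line. It was at 0.448 to 253 CPM (median 9.81) in TL1, with the highest value in TL1 3a, at 1.12, 5.18, 20.5 and 0.129 CPM in TL2 and at 5.52, 6.79 and 1.44 CPM in MSC. Its difference between tumour lines and MSC, 2.11, had an SE of 1.73. Inhba, the beta A subunit, was at 28.0 and 15.2 CPM in the Mut clones and 70.8 and 78.2 CPM in the KO clones, and rose by 1.80 (SE 0.33, edgeR adjusted p = 0.0116; 0.0625 without KO clone 2). It overlapped between MSC (58.6, 85.1 and 41.2 CPM), TL1 (16.9 to 74.5 CPM, median 32.1) and TL2 (13.4, 58.2, 88.3 and 35.4 CPM). Fst, the follistatin gene, went from 0.290 and 0.557 CPM in the Mut clones to 25 and 22.1 CPM in the KO clones, a rise of 5.79 (SE 0.45, edgeR adjusted p = 0.000515). It was at 37.6, 11.5 and 56.3 CPM in MSC, 0.585 to 29.5 CPM (median 3.55) in TL1 and 7.62, 3.04, 0.630 and 6.56 CPM in TL2. TL1 3a, at 29.5 CPM, was the only tumour line inside the MSC range. The difference of -2.58 (SE 0.92, edgeR adjusted p = 0.0970) was called only without that line (0.0143) or with DESeq2. The 3 tumour-derived libraries highest in Fst, TL1 3a and both KO clones, were also the 3 highest in the muscle regulator Myog, with 265, 179 and 238 CPM against at most 21.3 CPM elsewhere. The muscle markers Myh3, Ttn and Actn2 had the same 3 highest, but Myod1, Des and Chrna1 did not. In TL1 1a, where Fst was at 2.17 CPM, Myod1 was at 572 CPM and Des at 1276 CPM. The part of the muscle genes in the Fst levels was not tested. Fstl3, a follistatin relative that also binds activin, was at 23.8 and 14.3 CPM in the Mut clones and 43.6 and 68.5 CPM in the KO clones, a rise of 1.57 (SE 0.36, edgeR adjusted p = 0.0221) that was lost without Mut clone 2 (0.116) or KO clone 2 (0.119). MSC had 14.8, 24.6 and 13.1 CPM of Fstl3, TL1 9.28 to 22 CPM (median 13) and TL2 6.50, 13.3, 16.3 and 17.9 CPM, which overlapped. Fstl1 encodes a secreted glycoprotein that binds BMPs and was the most abundant member in MSC, at 1447, 1351 and 1649 CPM. In TL1 it was at 124 to 552 CPM (median 278) and in TL2 at 105, 606, 478 and 473 CPM. It fell by 1.99 with no overlap (SE 0.41, edgeR adjusted p = 0.0119), though not without MSC 1 (0.0532) or MSC 3 (0.0726) or with TL2 alone against MSC (0.0700). Between the clones Fstl1 rose from 231 and 115 CPM to 614 and 701 CPM by 1.94 (SE 0.36, edgeR adjusted p = 0.0123; 0.0649 without KO clone 2).

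Of the BMP ligand genes, Bmp4 had the highest mean per kb of exon in every group but the Mut clones, where Bmp6 had (1.40 CPM against 0.299 CPM). Bmp5 (chromosome 9, 75775365 to 75900316, GRCm38.p6), a ligand known from skeletal development, was at 8.28, 21.4 and 18.1 CPM in MSC, where it had 602 counts, and had 6 counts over the 10 tumour lines. The TL1 lines ranged from 0 to 0.130 CPM with a median of 0, and the TL2 lines were at 0, 0, 0 and 0.193 CPM. The Mut clones had no counts and the KO clones 1 count (0.0787 and 0 CPM). Bmp5 fell by 8.27 in tumour lines (SE 0.86, edgeR adjusted p = 0.000234), the largest difference of any member in that comparison, and was called in all 21 alternative fits. Bmp4 (chromosome 14, 46383525 to 46390669), which induces bone and cartilage formation, was at 53.4, 93.1 and 85.0 CPM in MSC, at 0.598 to 34.8 CPM (median 16.6) in TL1 and at 7.95, 14.8, 19.5 and 0.257 CPM in TL2. All tumour lines lay below MSC, but they spread over a 135-fold range. The difference of -2.47 (SE 0.92) did not pass with edgeR (adjusted p = 0.112). It did with DESeq2 (0.0496) and with the lines summed per number (0.0443). In the Mut clones Bmp4 was at 0.0725 and 1.27 CPM and in the KO clones at 154 and 46.2 CPM, a rise of 7.26 (SE 1.15, edgeR adjusted p = 0.0144; 0.0571 without the filter on low counts). Per kb of exon, the KO clone mean of Bmp4, 44.5 CPM, was near the MSC mean of 34.3 CPM, and those of TL1 and TL2 were 7.74 and 4.73 CPM. Bmp6, also known as a regulator of iron balance, went the other way between the clones, from 3.26 and 7.64 CPM to 1.26 and 0.558 CPM. It fell by 2.55 (SE 0.68, edgeR adjusted p = 0.0356), a call lost without any 1 of the 4 clones (0.0623 to 0.219). In MSC it was at 4.68, 1.45 and 5.85 CPM, in TL1 at 0 to 2.54 CPM (median 0.830) and in TL2 at 0, 0.388, 0.841 and 16.3 CPM. Bmp2 was at 14.1 CPM in TL2 3 and at no more than 3.95 CPM in any other library, and was not called. Bmp7 had reads in TL2 2b alone, at 0.0701 CPM, and did not pass the filter.

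**Figure D3:**
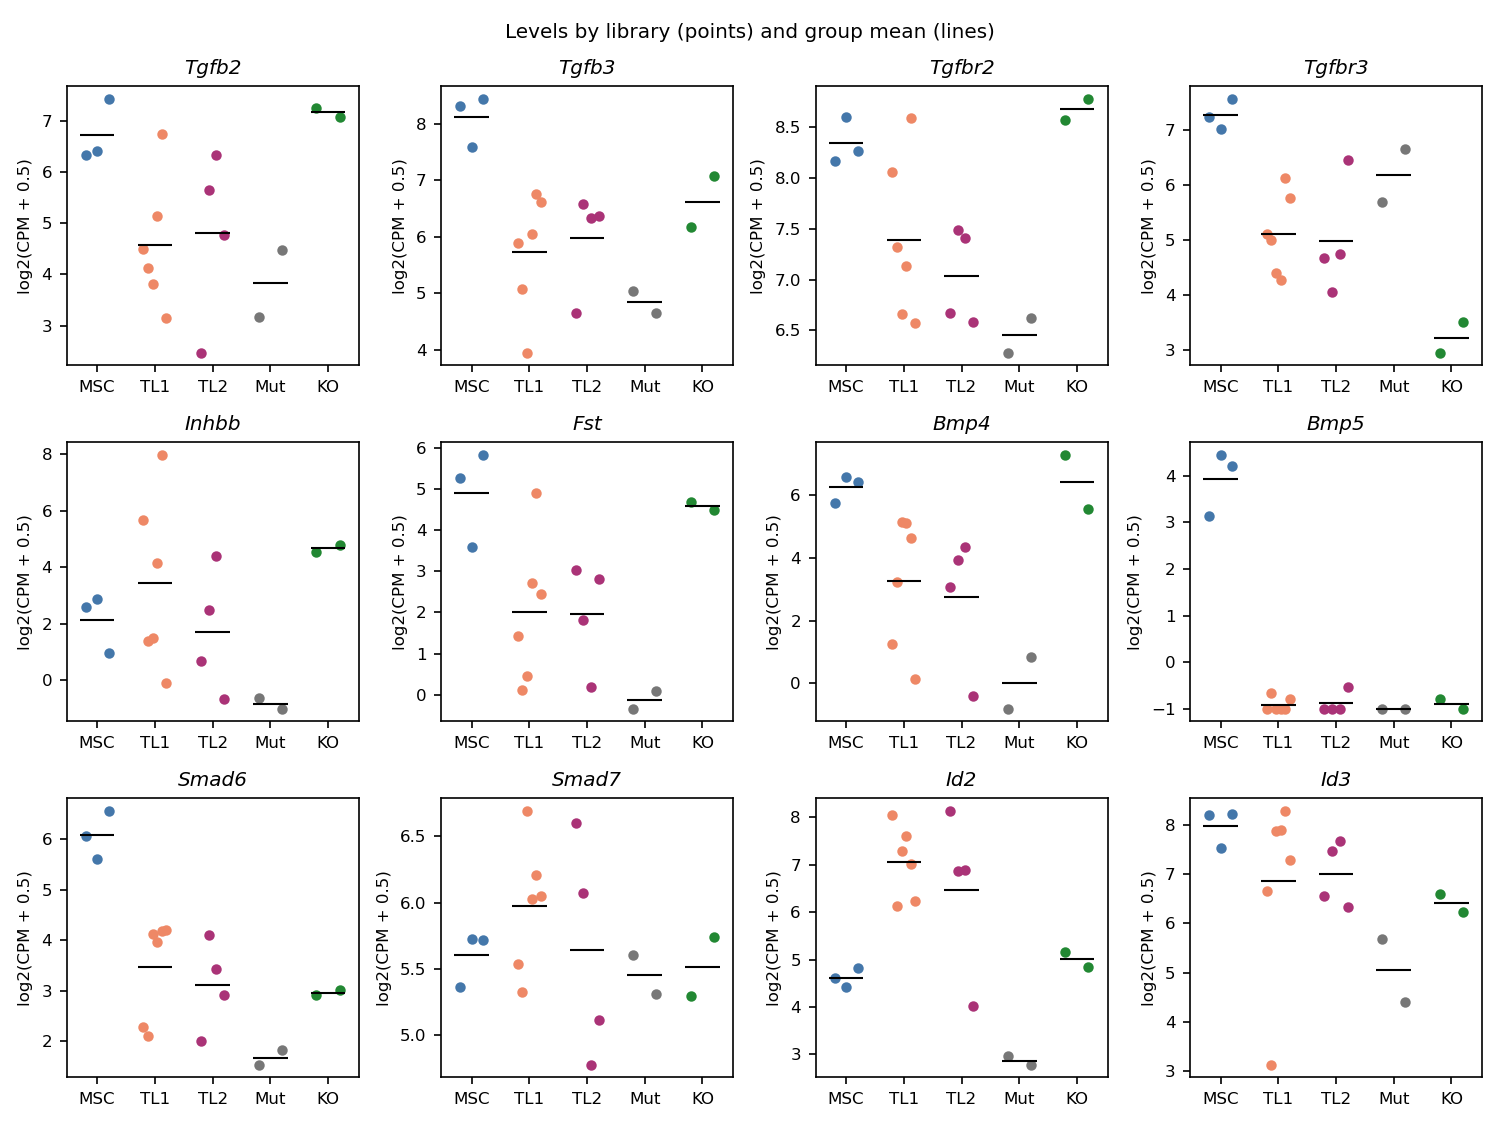
Levels of 12 members as log2(CPM + 0.5) by library (points) and group mean (lines), with a separate vertical scale for each gene. Bmp5, Smad6, Tgfb3 and Tgfbr3 show every tumour line below the 3 MSC points, and Tgfb2, Tgfbr2, Fst, Inhbb, Bmp4 and Id2 show both KO clones above both Mut clones.

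Among the BMP antagonists, noggin was called between the clones. Nog was at 0.0725 and 0.557 CPM in the Mut clones and at 27.2 and 3.35 CPM in the KO clones, a rise of 5.61 (SE 1.42, edgeR adjusted p = 0.0460). The call was lost without Mut clone 1 (0.156), Mut clone 2 (0.113) or KO clone 1 (0.0978) and without the filter on low counts (0.0931). It was low in MSC (0.502, 1.45 and 3.19 CPM), TL1 (0.0747 to 7.36 CPM, median 0.992) and TL2 (0.131, 0.582, 7.43 and 0.0643 CPM). Chrd, for chordin, was at 0.145 and 0.876 CPM in the Mut clones and 2.44 and 2.55 CPM in the KO clones (difference 2.31, SE 0.79, edgeR adjusted p = 0.0751). It was at 1.09, 1.05 and 2.35 CPM in MSC, 0.224 to 1.28 CPM (median 0.419) in TL1 and 0.0657, 1.42, 5.46 and 0.386 CPM in TL2. Grem1, for gremlin, was not called and ranged from 0.324 to 43.7 CPM over all tumour lines. Bambi encodes a membrane pseudoreceptor that lacks a kinase domain. It was highest in the Mut clones (34.9 and 21.6 CPM) and in TL2 3 (22.1 CPM), with 9.52 and 4.06 CPM in the KO clones. MSC were at 10.5, 7.59 and 7.90 CPM, TL1 at 2.73 to 5.26 CPM (median 3.22) and the other TL2 lines at 5.39, 3.75 and 4.90 CPM. In the KO clones Bambi fell by 2.04 (SE 0.48, edgeR adjusted p = 0.0258), which was lost without Mut clone 1 (0.127), Mut clone 2 (0.0699) or KO clone 2 (0.0905).

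Of the 6 BMP and activin receptor genes, Acvr1 and Acvrl1 were lower in tumour lines and Bmpr1b was higher in the KO clones. Acvr1, a type I receptor for BMPs also called ALK2, was at 86.1, 77.4 and 97 CPM in MSC, 28.3 to 55.9 CPM (median 42.8) in TL1 and 32.4, 63.9, 34.5 and 27.3 CPM in TL2. Tumour lines and MSC did not overlap, and it fell by 1.04 (SE 0.26, edgeR adjusted p = 0.0263), although leaving out any 1 of the 3 MSC libraries ended the call (0.0570 to 0.151). So did taking TL1 alone (0.0588) or TL2 alone (0.0641) against MSC. With 28.1 and 33.4 CPM in the Mut clones and 41.4 and 49.2 CPM in the KO clones, the difference between the clones was 0.57 (SE 0.24, edgeR adjusted p = 0.124). Acvrl1, or ALK1, best known from endothelial cells, was at 4.85, 2.83 and 2.89 CPM in MSC, 0.130 to 0.971 CPM (median 0.408) in TL1 and 0, 0.259, 0 and 0.322 CPM in TL2. In the clones it was at most 0.319 CPM and did not pass the filter. It fell by 3.63 in tumour lines (SE 0.71, edgeR adjusted p = 0.00842; 0.0617 without MSC 1 and 0.0580 with TL1 alone). The 6 endothelial markers together were at 1.06 to 1.84 CPM in MSC, with Cdh5, Emcn and Tie1 at 0. Bmpr1b, a type I receptor of BMPs, had 2 counts over the Mut clones (0.0725 and 0.0796 CPM) and 98 over the KO clones (3.15 and 4.62 CPM). The ratio was 51.2 (95% exact interval 13.8 to 428, edgeR adjusted p = 0.00362). It was at 3.18, 3.88 and 1.29 CPM in MSC, 1.20 to 10.3 CPM (median 5.46) in TL1 and 9.98, 14, 5.95 and 0.515 CPM in TL2, which overlapped. Bmpr1a, another type I receptor, was at 110, 120 and 117 CPM in MSC, 63.8 to 135 CPM (median 81.6) in TL1 and 136, 105, 117 and 67.7 CPM in TL2. In the clones it was at 53.1 and 53.1 CPM with mutant p53 and 82.7 and 58.5 CPM after knockout, and neither difference was called (-0.22 and 0.43). Bmpr2 stayed between 9.41 and 38.2 CPM and Acvr2a between 9.97 and 42.5 CPM in all libraries, with no call.

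Of the 6 signal-transducing SMAD genes, Smad9 alone was called, and of the 2 inhibitory ones, Smad6. Smad2, a transducer of TGF-beta, was at 69, 69.2 and 78.1 CPM in MSC, 57.4 to 103 CPM (median 87.2) in TL1 and 113, 85.6, 83.6 and 78 CPM in TL2, which overlapped. It was at 89.4 and 95.5 CPM in the Mut clones and 130 and 133 CPM in the KO clones (difference 0.52, SE 0.20, edgeR adjusted p = 0.0978). Smad5, a transducer of BMPs, was at 71.5, 60.6 and 59.6 CPM in MSC, 54.6 to 86.7 CPM (median 61) in TL1 and 63.8, 84.3, 104 and 50.4 CPM in TL2, also with overlap. Its clones were at 57.5 and 57.7 CPM with mutant p53 and 98.4 and 82.2 CPM after knockout (difference 0.67, SE 0.21, edgeR adjusted p = 0.0635; 0.0307 with DESeq2). Smad4, the shared partner, was at 79.4, 90.4 and 79 CPM in MSC, 76.6 to 122 CPM (median 106) in TL1 and 111, 112, 103 and 111 CPM in TL2. At 124 and 139 CPM in the Mut clones and 104 and 85.5 CPM in the KO clones, it was not called in either comparison. Smad1 (23.4 to 71.9 CPM) and Smad3 (29.8 to 111 CPM) were not called either, and Smad3 had a difference of -0.00 between the clones (SE 0.28). Smad9 went from 6.31 and 7.48 CPM in the Mut clones to 0.866 and 0.637 CPM after knockout. It fell by 3.16 (SE 0.51, edgeR adjusted p = 0.00720; 0.0572 without Mut clone 2). In MSC it was at 14.1, 11.6 and 20.4 CPM, in TL1 at 1.82 to 20.1 CPM (median 11.6) and in TL2 at 9.46, 8.61, 4.27 and 7.01 CPM. Smad6 (chromosome 9, 63953076 to 64022085), which mainly restrains BMP receptors, was at 66, 48.2 and 94 CPM in MSC, 3.77 to 17.9 CPM (median 16) in TL1 and 3.48, 16.6, 10.3 and 7.07 CPM in TL2. It fell by 2.64 in tumour lines with no overlap (SE 0.47, edgeR adjusted p = 0.00558) and was called in all 21 alternative fits. Between the clones, Smad6 rose from 2.39 and 3.02 CPM to 7.01 and 7.57 CPM by 1.44 (SE 0.42, edgeR adjusted p = 0.0474). That call was lost in 7 of 9 alternative fits, among them those without any 1 of the 4 clones (0.127 to 0.162) and that on library totals (0.0623). Smad7, the inhibitory SMAD of both branches, stayed between 26.8 and 103 CPM with differences of 0.36 and 0.09, neither called.

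The 4 ID genes, which encode inhibitors of basic helix-loop-helix factors and are classical targets of BMP signalling, did not move together in tumour lines. Id2 (chromosome 12, 25093799 to 25096092) was at 23.9, 20.9 and 27.6 CPM in MSC, 69.9 to 265 CPM (median 142) in TL1 and 282, 116, 119 and 15.6 CPM in TL2. It lay above MSC in 9 of 10 tumour lines and below it in TL2 3, and it rose by 2.57 (SE 0.70, edgeR adjusted p = 0.04), the one member called higher. The call held in 10 of 21 alternative fits and was lost without any 1 MSC library (0.129 to 0.163), without TL1 1a (0.0534), 2a (0.0546) or 2b (0.0553), and without TL2 2a (0.0525) or 2b (0.0546). It was also lost without the filter on low counts (0.0521), with TL1 alone (0.0528) and with TL2 alone (0.0753). The Mut clones, at 7.25 and 6.37 CPM, had less Id2 than any other library, and it rose to 35.2 and 28.3 CPM in the KO clones by 2.23 (SE 0.28, edgeR adjusted p = 0.00330). Id3 was at 293, 183 and 298 CPM in MSC, 8.25 to 311 CPM (median 195) in TL1 and 93.4, 177, 203 and 80.1 CPM in TL2, which overlapped (difference -0.70, SE 0.63). It was at 50.8 and 20.7 CPM in the Mut clones and 96.6 and 74.9 CPM in the KO clones. That difference of 1.27 was not called by edgeR (SE 0.44, edgeR adjusted p = 0.0847) but was with DESeq2 (adjusted p = 0.0189). Id1 lay between 7.64 and 93.1 CPM and Id4 between 0 and 10.4 CPM in all libraries. The difference of Id4 in tumour lines, -2.67 (SE 1.13), was called with the replicate block (edgeR adjusted p = 0.0476; 0.154 without it) but not with the lines summed per number (0.216). Per kb of exon, Id3 was the most abundant ID gene in every group, with means of 144 CPM in MSC and 97.4 CPM in TL1, where Id2 had 9.91 and 60.6 CPM.

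The bases before the start of Id2, Id3 and Smad6 are shown because these 3 classical BMP targets had unlike results in tumour lines: Id2 rose, Smad6 fell and Id3 was not called. The genes were thus picked by their results here, so their matches cannot be read as going with a rise or a fall. Shown are the 250 bases 5′ of an annotated start in the direction of the gene, from RefSeq on GRCm38.p6. For Smad6 that start differs from the outer end of the gene given above, 64022085, so part of its stretch lies inside those bounds. Capitals mark matches on either strand to GGCGCC, the core of the BMP response element, and to CAGAC, the SMAD binding element (GTCTG on the other strand). Id2 has 1 GGCGCC, whose match begins at position -231 from the start, Id3 has 2 matches to CAGAC, and the stretch of Smad6 has neither. Promoters were found for 30 of the 43 members (38 promoters, since some genes have more than 1). GGCGCC was in 11 of these 38 (28.9%), which belong to 10 genes, against 9.59% of all 32851 promoters of this length; CAGAC was in 42.1% against 42.2%, and the E box CACGTG, searched for comparison, in 7.89% against 6.02%. GGCGCC holds G and C only, and these shares were not matched for base composition. In Ltbp4 the same GGCGCC site was counted in overlapping promoters. A match describes letters only, and binding was not measured.
Id2, chr12:25096093-25096342, minus strand: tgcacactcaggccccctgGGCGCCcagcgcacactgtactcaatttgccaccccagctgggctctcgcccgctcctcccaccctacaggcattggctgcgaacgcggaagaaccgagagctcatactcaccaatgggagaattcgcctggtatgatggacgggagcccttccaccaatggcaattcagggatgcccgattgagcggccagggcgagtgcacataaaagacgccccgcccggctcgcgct
Id3, chr4:136143572-136143821, plus strand: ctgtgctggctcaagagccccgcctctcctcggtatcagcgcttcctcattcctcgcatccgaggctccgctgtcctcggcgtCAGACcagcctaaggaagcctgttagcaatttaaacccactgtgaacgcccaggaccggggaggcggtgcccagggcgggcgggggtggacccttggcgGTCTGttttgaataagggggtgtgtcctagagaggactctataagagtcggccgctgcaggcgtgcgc
Smad6, chr9:64022060-64022309, minus strand: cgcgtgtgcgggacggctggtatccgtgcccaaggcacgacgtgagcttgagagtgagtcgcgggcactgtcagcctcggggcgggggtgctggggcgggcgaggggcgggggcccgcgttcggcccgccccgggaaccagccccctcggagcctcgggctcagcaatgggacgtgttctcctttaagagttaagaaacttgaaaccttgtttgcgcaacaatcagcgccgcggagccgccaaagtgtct

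No pathway gene passed the test between TL2 and TL1 lines. By edgeR, 0 of 42 tested members were called in either direction, and DESeq2 called 0 members too. Over all 13262 genes 0% were called by edgeR and 1.85% had an unadjusted p under 0.05. Among the members that held for 1, Bambi, with a difference of 1.29 (SE 0.47, edgeR adjusted p = 0.9999). The differences ran from -3.03 for Inhbb (SE 1.66) to 2.10 for Bmp6 (SE 1.27), so large differences in such variable genes were not detectable with these lines. The spread among lines was wide for some genes: the highest of the 10 lines exceeded the lowest by 1966-fold for Inhbb, 614-fold for Ltbp2, 135-fold for Bmp4 and Grem1, and 18.0-fold for Id2. TL1 3a was the highest line for 11 of the 43 members, TL2 2b and TL2 3 for 6 each.

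Genes of the pathway outside the 43 were counted from 6 further lists, and no list was tested against other genes. The shares of all genes called were 3.86% up and 4.79% down in tumour lines against MSC, and 14.2% up and 12% down in the KO clones. In tumour lines, 1 of 8 tested other ligands was called, Inha, the inhibin alpha subunit, which fell by 3.81 (SE 0.75, edgeR adjusted p = 0.00867) from 3.26, 3.47 and 5.01 CPM in MSC to at most 1.80 CPM. Of 8 other receptors and co-receptors, 2 were lower. Eng, a co-receptor also used as an MSC marker, went from 68, 55.8 and 97.9 CPM in MSC to 1.80 to 17 CPM (edgeR adjusted p = 0.00237). Lrrc32, which anchors latent TGF-beta at the cell surface, went from 154, 296 and 147 CPM to 0.0657 to 40 CPM (edgeR adjusted p = 0.0101). Of 18 other extracellular modulators, 1 was higher, the protease gene Htra1, and 4 lower. Among the latter, the fibrillin gene Fbn1 was at 701 to 1090 CPM in MSC and at most 135 CPM in tumour lines, and Fbn2 at 103 to 212 CPM and at most 6.23 CPM. Fibrillin microfibrils hold latent TGF-beta and BMP complexes in the matrix. Of 23 intracellular regulators, 4 were higher and 2 lower. The higher ones included the ubiquitin ligase genes Wwp1 and Nedd4l, which rose by 1.05 and 1.09, and Tab1, an activator of the kinase TAK1, which rose by 0.77. In the KO clones, 2 of 5 other ligands were higher. Gdf15, a stress-induced ligand, had no counts in the Mut clones and 35 and 17.2 CPM in the KO clones, at least 230-fold higher against a floor of 3 counts over the group, and Gdf11 rose by 1.48. Of 7 receptors and co-receptors, 2 were higher and 1, Acvr1b, fell by 1.22. Hfe2, a BMP co-receptor (hemojuvelin) known from muscle and liver, had no counts in the Mut clones and was at least 159-fold higher. Of 15 extracellular modulators, 6 were higher and 2 lower. Itgb6, a subunit of an integrin that activates TGF-beta, was at 0.290 and 0.0796 CPM in the Mut clones and 26.4 and 30.6 CPM in the KO clones, while Htra1 fell by 2.07. Of 23 intracellular regulators 1 was higher, Pmepa1, and 3 lower, Ppm1a and Nedd4l among them, which is 17.4% of the list against 26.1% of all genes.

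Of 20 known TGF-beta target genes tested in tumour lines, 1 was called higher and 4 lower, beside 3.86% and 4.79% of all genes, with a median difference of -1.16 against 0.10 over all genes. The contractile genes Acta2 and Tagln were among the lower ones. Acta2 was at 6291, 3295 and 4522 CPM in MSC and at most 1025 CPM in a tumour line, and fell by 3.29 (SE 0.52, edgeR adjusted p = 0.00276). Junb, an AP-1 factor, was the one called higher, from 80.3, 119 and 86.7 CPM to 136 to 491 CPM. Of 18 tested between the clones, 10 were higher and 1, Cdkn2b, lower, beside 14.2% and 12% of all genes, with a median of 1.46 against 0.01 over all genes. Postn, for the matrix protein periostin, was at 0.942 and 0.955 CPM and at 2235 and 1233 CPM, a rise of 10.84 (SE 0.48, edgeR adjusted p = 9.43e-05). Pmepa1, a feedback inhibitor of TGF-beta signalling, went from 16.2 and 21.9 CPM to 205 and 404 CPM and rose by 4.02 (SE 0.40, edgeR adjusted p = 0.00163). Fn1 and Col1a2 had differences of -0.01 and -0.23 between the clones and were not called. Of 12 BMP target genes tested in tumour lines, 1 was higher, Dlx3, and 2 lower, Zfp423 and Sp7, all 3 of them transcription factors, with a median of -0.90. Of 8 BMP targets tested between the clones, 4 were higher and 1 lower, with a median of 0.83. Runx2, the master factor of bone formation, was at 32.1 and 37.5 CPM in the Mut clones and 79.5 and 95.9 CPM in the KO clones, a rise of 1.35 (SE 0.23, edgeR adjusted p = 0.00866). Atoh8 went from 2.46 and 2.39 CPM to 29.9 and 21.6 CPM. Hey1, a target that Notch induces too, went from 0 counts to 5.83 and 2.63 CPM, at least 37.2-fold higher. Dlx5 went from 3 counts to 71 (ratio 24.7, 95% exact interval 8.12 to 123). Msx2 had 62 counts over the Mut clones and 2 over the KO clones (ratio 29.7, interval 7.88 to 251).

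**Figure D4:**
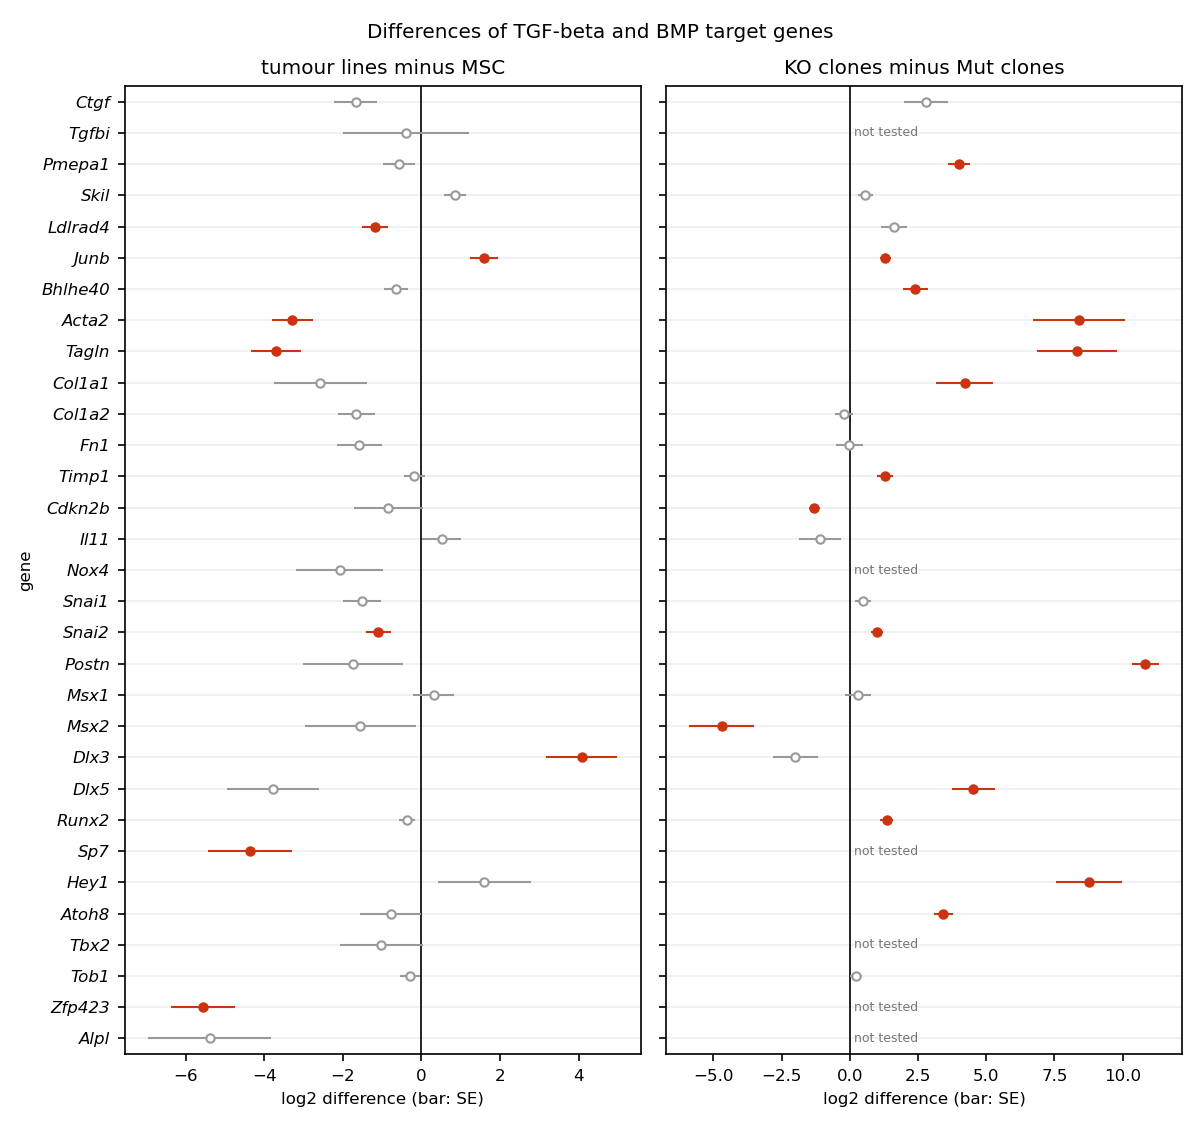
Log2 differences of TGF-beta target genes (Ctgf to Postn) and BMP target genes (Msx1 to Alpl) with their standard errors (bars), tumour lines minus MSC on the left and KO clones minus Mut clones on the right, with filled red points for genes called by edgeR. Acta2 and Tagln lie below 0 on the left and above 0 on the right, Junb lies above 0 in both panels, and the points of Hey1, Dlx5 and Msx2 on the right are fitted values that rest on 0, 3 and 2 counts in 1 of the groups.

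Of the 39 members tested in both comparisons, which share no libraries, 5 were called in both, beside 289 of 12093 genes (2.39%); whether the members exceed other genes in this was not tested. Tgfb3, Fstl1 and Smad6 were lower in tumour lines than in MSC and higher in the KO clones than in the Mut clones. Tgfbr3 was lower in both, and Id2 was higher in both. None of the KO clone levels of Tgfb3, Fstl1 or Smad6 reached the lowest MSC library: they were at most 134 CPM against 193 CPM, 701 CPM against 1351 CPM and 7.57 CPM against 48.2 CPM. With the spread estimated over all 17 libraries, 5.94% of 13796 genes were called between the clones, and of the members 2 were higher, Tgfbr2 and Bmpr1b, and 2 lower, Tgfbr3 and Smad9.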

How the data were processed

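Fragmented and reverse transcribed total RNA was read in single-end reads of 60 bases, per the labels. The authors deposited 1 table of raw counts by gene symbol. The submitters' processing notes name the build mm10 and, as tools, DESeq2 1.6.3, HTSeq 0.6.1p1, TopHat2 2.0.10 and cutadapt. What each tool did, the annotation and the strand setting were not given in the sources, so reads of a gene and of an overlapping or antisense partner cannot be told apart. In the table, 4 columns match no sample and were used in no step. Groups were taken from the titles; a letter was added where a number recurs within a group.

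The members and gene lists were chosen with earlier results of these data known. Counts were tested with edgeR 4.0.16 (R 4.3.3): TMM scaling, filtering by expression, robust quasi-likelihood fits and Benjamini-Hochberg adjustment over all tested genes. MSC, TL1 and TL2 (13 libraries) were fitted together, for tumour lines (average of the TL1 and TL2 coefficients) minus MSC and for TL2 minus TL1; the 4 clones had a fit of their own. SE is the log2 difference divided by the root of F. Bounds use 3 counts over a group without counts; intervals are exact, at a confidence level of 0.95, and cover counting error only. CPM are counts scaled by TMM library size. CPM per kb uses the summed exon length of GENCODE M21 (GRCm38). The scripts were tested on simulated data. No pair of libraries within a group differed by as little as sampling noise.

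Members are given per library where edgeR called them, where clones did not overlap at an unadjusted p under 0.05, or where a group mean reached 100 CPM. Of each other list, up to 3 called genes with the smallest adjusted p are named. Genes beyond this rule (Fn1, Col1a2, Cdkn2b, Dlx5, Msx2 and the muscle, stromal, epithelial and macrophage markers named) were chosen after their values were seen. A gene that this rule takes is not reported here, though counts over lists include it. Alternatives were DESeq2 1.42.0, other scalings, no filter, other sets of libraries, a replicate block and leaving out each library. The numbers in titles were checked for pairing by correlating deviations from the group means across genes. Same-numbered TL1 and TL2 libraries gave r = 0.451, 0.352 and 0.493. MSC and TL1 gave 0.0256, 0.0469 and 0.186, and MSC and TL2 gave 0.225, -0.0452 and 0.166. The main fits used no pairing and treated all libraries as independent, also same-numbered tumour lines. The number entered alternative fits only, as a block over MSC, TL1 and TL2 alike or for summing the lines.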

Additional observations from a re-analysis of the deposited data

Results flagged for a closer look

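In 14 of 85 sets of TL1 (6 lines) or TL2 (4 lines) values of a member, the highest or lowest line stood apart from the nearest other line by more than Dixon's 95% critical value. That value flags about 1 in 20 groups only where values are normally distributed. CPM were used untransformed, and every flag but that of Smad4 was on the high side. The 14 of 85 can thus not be set against that rate. TL1 3a was such a line for Inhbb (253 CPM, next 51.0 CPM), Tgfb2 (107 CPM, next 34.9 CPM), Fst (29.5 CPM, next 6.01 CPM) and Bmp2 (3.95 CPM, next 1.42 CPM). TL2 3 was high in Tgfbr3 (87.9 CPM, next 26.3 CPM), Bambi (22.1 CPM, next 5.39 CPM), Bmp6 (16.3 CPM, next 0.841 CPM), Bmp2 (14.1 CPM, next 0.263 CPM) and Bmp5 (0.193 CPM, next 0 CPM). TL2 2b was high in Nog (7.43 CPM, next 0.582 CPM) and Bmp7 (0.0701 CPM, next 0 CPM) and low in Smad4 (103 CPM, next 111 CPM). TL1 1b was high in Ltbp1 (557 CPM, next 260 CPM) and TL1 2b in Chrd (1.28 CPM, next 0.485 CPM). The values of Bmp5 and Bmp7 rest on 3 and 1 counts.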

How the results depend on the processing

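Members called in at least 1 fit of a comparison kept their direction in its alternatives; members called in none were not followed. Between tumour lines and MSC, the count of members called higher, 1, became 2 with lines summed per number and 0 without a filter on low counts, with TL1 alone or with TL2 alone; the count called lower, 7, became 3 with TL2 alone. Leaving out 1 library gave 0 to 1 higher and 2 to 10 lower, the lowest without MSC 1 (2) and MSC 3 (3). With the replicate block it was 1 higher and 9 lower; the block added Tgfbr1 and Id4 and changed no other call, and TL2 minus TL1 stayed at 0. Between the clones, 16 higher and 4 lower became 2 and 2 in the fit over all 17 libraries, and leaving out 1 clone gave 8 to 13 higher and 1 to 3 lower, with the lone clone of a group assumed to vary like the others; 9 and 1 without Mut clone 2, 8 and 2 without KO clone 2, 12 and 2 without Mut clone 1. DESeq2 gave 1 and 10 in tumour lines and 19 and 4 in the clones. Why these counts move was not tested, beyond the smaller number of libraries. No paired analysis was possible for the clones because their titles carry no shared number. At these depths 1 CPM corresponds to 12 to 15.5 counts in a library, which limits members under that level.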
